A study of Mus musculus with 15 samples.

Results

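Potassium channels that open on intracellular ions, together with a subunit of the M-current channels, were followed through the postnatal maturation of the mouse auditory nerve. The 7 genes Kcnma1, Kcnn1, Kcnn2, Kcnn3, Kcnt1, Kcnt2 and Kcnq3 were taken by their symbols, with no threshold on a measured value, and 7 of the 18536 genes in the deposited table carried these symbols. RNA was sequenced from nerves microdissected at 4 postnatal days (P3, P7, P14, P21) and from adult nerves, with 3 libraries per age, each pooling both cochleae of a separate mouse. No genotype, treatment, strain, sex or adult age is given in the sources used here, and the titles of the adult libraries carry the tag CTRL without saying for what they served as controls. Hearing begins in mice in the interval between P7 and P14.

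A potassium channel that opens late in an action potential repolarizes the axon and sets how soon it can fire again. Kcnma1 encodes the pore of the large-conductance BK channel, which needs both calcium and depolarization. Kcnn1, Kcnn2 and Kcnn3 encode the small-conductance SK channels, which sense calcium through bound calmodulin and carry part of the after-hyperpolarization that follows spikes; in the cochlea Kcnn2 is best known from hair cells, where it serves the efferent synapse. Kcnt1 (Slack) and Kcnt2 (Slick) form sodium-activated channels, and Kcnq3 contributes to the slowly gating M-current that holds neurons near rest.

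RefSeq promoter sequences of build GRCm38.p6, from 250 bases before to 50 bases after a start, were at hand for 4 of the 7 genes. They are shown for the 3 genes with a RefSeq start at the deposited gene start, since these 3 follow different courses in the data below. Capitals mark the GC box (GGGCGG, or CCGCCC on the other strand).
Kcnma1, chr14:24004156-24004455, minus strand: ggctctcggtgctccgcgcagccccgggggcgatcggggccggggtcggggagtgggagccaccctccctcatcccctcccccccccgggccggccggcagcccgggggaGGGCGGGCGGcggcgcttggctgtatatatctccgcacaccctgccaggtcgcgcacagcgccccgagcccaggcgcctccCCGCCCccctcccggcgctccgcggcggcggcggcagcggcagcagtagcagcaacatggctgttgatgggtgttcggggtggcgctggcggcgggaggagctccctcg
Kcnn1, chr8:70856959-70857258, minus strand: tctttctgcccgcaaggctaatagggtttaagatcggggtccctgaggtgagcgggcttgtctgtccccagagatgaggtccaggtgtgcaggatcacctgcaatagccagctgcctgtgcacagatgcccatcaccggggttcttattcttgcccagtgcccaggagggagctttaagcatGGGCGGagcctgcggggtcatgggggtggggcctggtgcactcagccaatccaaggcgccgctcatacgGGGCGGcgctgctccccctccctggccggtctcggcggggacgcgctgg
Kcnn3, chr3:89519914-89520213, plus strand: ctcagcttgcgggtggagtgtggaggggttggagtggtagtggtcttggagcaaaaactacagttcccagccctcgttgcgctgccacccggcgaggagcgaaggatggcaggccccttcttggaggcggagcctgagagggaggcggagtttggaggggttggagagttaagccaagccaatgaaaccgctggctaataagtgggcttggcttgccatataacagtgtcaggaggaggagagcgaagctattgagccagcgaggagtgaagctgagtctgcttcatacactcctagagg
The Kcnma1 window held 3 GC boxes, of which a pair overlaps, at a GC content of 78%. The Kcnn1 window shown held 2 GC boxes at 64.3% GC, and Kcnn3 held none of them at 57.7% GC. Another RefSeq start of Kcnn1 lies 6250 bases from the deposited start. Its window, not shown, held 0 GC boxes at 62.3% GC. The median promoter held 52.7% GC, and 35.7% of 32851 promoters of the same length had at least 1 GC box. The cyclic AMP response element TGACGTCA, the TATA box (TATAAA, on the other strand TTTATA) and the E-box CACGTG were searched on both strands and matched in none of the 3 windows, against 1.79%, 13.6% and 7.15% of all promoters.

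The genes lie on 7 chromosomes of build mm10. The deposited coordinates include introns as well as exons. Each gene reaches further in the GENCODE M21 annotation, where Kcnn1 ends at 70863258 and Kcnma1 runs from 23289431 to 24014491. By the deposited coordinates, Kcnma1 runs from 23298694 to 24004205 on the minus strand of chromosome 14. Kcnn1 runs from 70842049 to 70857008 on the minus strand of chromosome 8. Kcnn2 runs from 45268860 to 45685883 on the plus strand of chromosome 18 and Kcnn3 from 89520164 to 89672494 on the plus strand of chromosome 3. Kcnt1 runs from 25863795 to 25918273 on the plus strand of chromosome 2, Kcnt2 from 140246257 to 140610261 on the plus strand of chromosome 1 and Kcnq3 from 65994915 to 66286224 on the minus strand of chromosome 15. The longest run of bases that any pair of SK transcripts shared was 26, between Kcnn1 and Kcnn3, and Kcnt1 and Kcnt2 shared at most 23. In the annotation, 284 exon bases of Kcnn2, 3.8% of its exon length, overlap the antisense gene A330093E20Rik, which stood between 17.5 and 76.6 normalized counts. The use of strand in counting is not given in the sources used here, so reads in that stretch cannot be assigned to either gene.

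Levels are normalized read counts: the reads of a gene, scaled by a single factor for each library. The libraries held between 35250155 and 42258738 reads assigned to genes, and 3 reads, taken as the floor of detection, corresponded to a normalized count between 2.53 and 3.65. All 7 genes stood above this floor in all 15 libraries; the lowest value, of Kcnt2 in P21 replicate 2, rested on 10 reads. Fold changes and their standard errors (SE) are in log2 units of the value plus a pseudocount of 1, and a gene was called at an adjusted p under 0.05. Reads were not marked by molecule, so a floor covers counting error only. In these bulk libraries, fewer cells of a type and less RNA per cell cannot be told apart.

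Libraries differed in 2 properties that ran alongside several results. The balance of long against short transcripts was taken per library as the median log2 deviation of the genes with a longest transcript of at least 4707 bases, minus that of the genes at or under 2123 bases. It was between 0.36 and 0.47 in the 3 adult libraries, at -0.73 in P21 replicate 2, and between -0.28 and 0.22 in the other 11. Since all 3 adult libraries were high, this balance and age cannot be told apart in the adult, and its source was not tested. The longest transcripts of 5 of the 7 genes, between 5790 and 12094 bases, were above the limit of 4707 bases, and those of Kcnn1 (4047 bases) and Kcnn2 (3682 bases) were under it. In addition, 4 libraries (P14 replicate 1, P21 replicates 1 and 2, adult replicate 3) were low in the Y-linked gene Eif2s3y, at most 26.7 normalized counts against at least 1576.5 in the others. The same 4 libraries held 24201 to 44422 normalized counts of Xist, the RNA that coats the inactive X chromosome of female cells, against at most 1107 in the others. They are spread unevenly over the ages, with none at P3 or P7 and 2 of 3 at P21. Calls that were gained or lost with either property are given at each of the 7 genes. For partner and marker genes they are not given.

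All 7 genes differed among the 5 ages (limma F test, adjusted p between 2.06e-08 and 0.0057), as did 85.4% of the 16723 genes tested. The steps differed between the genes. At P7 against P3, 2 of 7 were called, Kcnn1 and Kcnt1, both lower at P7. Of all genes tested, 28.1% were called in this comparison, 15.4% higher and 12.8% lower. At P14 against P7, 4 of 7 were called, Kcnn2 and Kcnt1 higher and Kcnma1 and Kcnn3 lower, beside 48.1% of all genes (24.3% higher, 23.8% lower). At P21 against P14 limma called 0 of 7, beside 9.29% of all genes (3.29% higher, 6% lower); 2 of the 7 had an unadjusted p under 0.05, and edgeR and DESeq2 on the recovered reads also called 0. In the adult against P21, 5 of 7 were called and all 5 were higher in the adult, beside 49.4% of all genes (25.4% higher, 24.1% lower). With the trend over transcript length removed 3 of 7 were called, Kcnn3, Kcnt1 and Kcnq3. The share of all genes called under that setting is not given here, so the drop cannot be read as particular to the channels. Fewer of the 5 calls also held without the libraries low in Eif2s3y, which leaves 1 library at P21. Their log2 changes were then between 0.26 (Kcnn1) and 1.55 (Kcnn3). Over the whole span, in the adult against P3, 5 of 7 were called, Kcnn2, Kcnt1 and Kcnq3 higher and Kcnn3 and Kcnt2 lower, beside 68.7% of all genes (34.4% higher, 34.3% lower).

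The libraries of both ages did not overlap for 4 of the 7 genes at P7 against P3 (54.2% of all genes), for 5 at P14 against P7 (61.4%), for 0 at P21 against P14 (24.4%), for 6 in the adult against P21 (56.1%) and for 7 in the adult against P3 (76.4%). The median log2 fold change of the 7 genes was -0.67 at P7 against P3, 0.03 at P14 against P7, -0.27 at P21 against P14, 0.97 in the adult against P21 and 0.5 in the adult against P3. The same medians over all genes tested lay between -0.02 and 0. The comparisons share libraries with their neighbours, so they are not independent of one another.

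**Figure D1:**
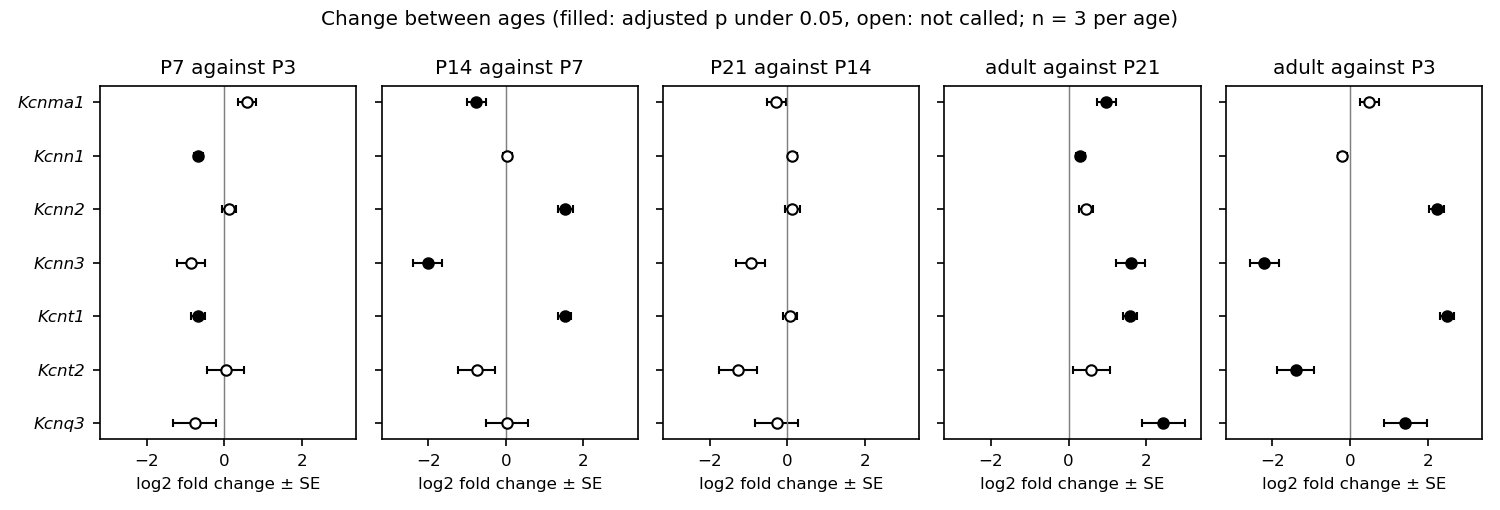
Log2 fold change ± SE (x axis) of the 7 genes (rows) in 5 comparisons of ages, the later age over the earlier, 3 libraries per age; filled points passed an adjusted p of 0.05 and open points did not. In the adult against P21, 5 of the 7 points are filled and lie to the right of 0; 3 were called with the length trend removed and 2 without the libraries low in Eif2s3y.

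Of the channel pores, Kcnma1 had 2 high ages. Its normalized counts were 1033, 1494 and 1636 at P3, 2059, 2069 and 1971 at P7, 1036, 1247 and 1330 at P14, 1292, 598 and 1243 at P21, and 1934, 1944 and 1918 in the adult. The P7 and adult libraries lay above each library of the other ages, whose libraries overlapped with one another. Kcnma1 fell to 1204 ± 151 at P14, against 2033 ± 53.9 at P7 (SD, n = 3 each), a log2 change of -0.76 ± 0.24 (adjusted p = 0.0186). It was higher in the adult, at 1932 ± 13.1, than at P21, at 1044 ± 387 (log2 change 0.97 ± 0.24, adjusted p = 0.00567). The higher mean at P7 than at P3 was not called (0.58 ± 0.24, adjusted p = 0.0902), nor was that in the adult over P3 (0.5 ± 0.24, adjusted p = 0.0781).

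Within ages, Kcnma1 moved with the balance of long and short transcripts. Deviations from the age means correlated at 0.95, against 0.69 over all libraries. P21 replicate 2, lowest in that balance, was lowest in Kcnma1. The P7 libraries, with a balance between -0.17 and -0.12, were high in Kcnma1, at 1971 to 2069 normalized counts. Once the trend of the log2 values over transcript length was taken out of each library, the adult exceeded P21 by 0.26 (adjusted p = 0.103), while P14 against P7 was -0.76 (adjusted p = 0.000157) and P7 was higher than P3 by 0.74 (adjusted p = 0.000672). Without P21 replicate 2 the adult difference was 0.61 (adjusted p = 0.00844), and without the 4 libraries low in Eif2s3y it was 0.64 (adjusted p = 0.0587). P14 against P7 was -0.66 without P14 replicate 1 (adjusted p = 0.0685), and P7 against P3 was called without P21 replicate 2 (adjusted p = 0.00631), with both ages alone in the fit (adjusted p = 0.0272) and without the libraries low in Eif2s3y (adjusted p = 0.0127). The adult against P3 was 0.05 with the length trend taken out (adjusted p = 0.704), and was called without P21 replicate 2 (0.5, adjusted p = 0.00528), without the libraries low in Eif2s3y (0.51, adjusted p = 0.0176) and with both ages alone in the fit (0.5, adjusted p = 0.0242).

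Other tissue that contains BK channels was present in the dissections. The summed counts of 11 smooth muscle and pericyte markers were between 21746 and 31908 at P14 against 17141 to 20224 at P7, while Kcnma1 fell. They were between 19414 and 23955 in the adult against 18142 to 25536 at P21. The sums of 15 hair cell markers were between 3971 and 9191 in the adult against 12086 to 14736 at P21, with 12 of the 15 called lower. No marker of either list was under 3 reads in all libraries of an age, except the hair cell transcription factor Atoh1 at P14. As deviations from the age means, Kcnma1 correlated at 0.66 with the smooth muscle and pericyte markers and at -0.04 with the hair cell markers. It correlated at 0.72 with endothelial and 0.69 with fibroblast markers, and between -0.19 and 0.54 with the remaining marker lists. With the smooth muscle and pericyte markers, Kcnt2 (0.8), Kcnt1 (0.79) and Kcnq3 (0.74) correlated more, and Kcnn3 (0.59), Kcnn1 (0.15) and Kcnn2 (0.1) less. The part of these tissues in the Kcnma1 levels was not tested.

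**Figure D2:**
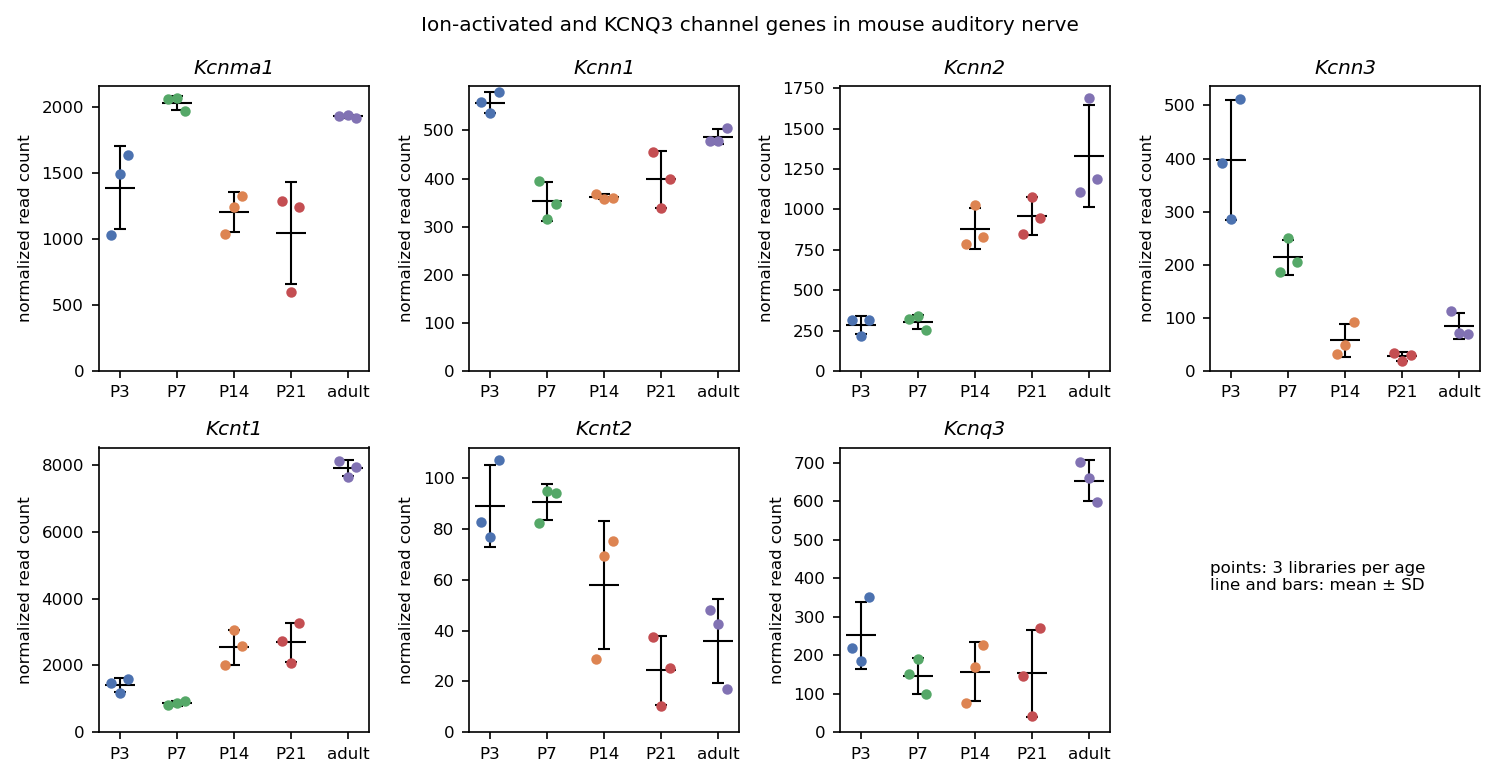
Normalized read count (y axis, from 0) of each gene in each of 15 libraries by age (x axis); points are libraries, the line and bars the mean ± SD of 3. Kcnt1 and Kcnq3 stand highest in the 3 adult libraries, Kcnn3 in the 3 P3 libraries, and P21 replicate 2 lies low for Kcnma1.

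Of 8 auxiliary subunits of BK channels, which shift the voltage range and kinetics of the pore, 7 were tested. At P7 against P3, 2 were called higher, at P14 against P7 5 and at P21 against P14 1. Of all genes, 15.4%, 24.3% and 3.29% were called higher in these comparisons. In the adult against P21 1 was higher and 1 lower, beside 25.4% and 24.1% of all genes. In the adult against P3 5 were higher and 1 lower, beside 34.4% and 34.3% of all genes. Their median log2 fold change in the adult against P3 was 1.56, against -0.01 for all genes. Lrrc55, a leucine-rich subunit that lets BK channels open at more negative voltages, averaged 836 ± 95 at P3, 2390 ± 370 at P7, 3289 ± 207 at P14, 3564 ± 338 at P21 and 5242 ± 512 in the adult. It rose at P7 against P3 by 1.51 ± 0.12 (adjusted p = 4.67e-06). Lrrc52, of the same family, was near the floor at P3 (5.71 ± 1.66) and P7 (9.38 ± 2.56) and stood at 82.3 ± 20.9 at P14, 185 ± 43.2 at P21 and 152 ± 26 in the adult; P14 exceeded P7 by 3 ± 0.29 (adjusted p = 2.8e-06). Kcnmb2, a beta subunit that makes BK currents inactivate, averaged 453 ± 11.1 in the adult and 199 ± 28.2 at P3 (log2 change 1.19 ± 0.14, adjusted p = 3.67e-06).

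The 3 SK genes exchanged rank during this period. Kcnn1 stood at 559, 537 and 579 normalized counts at P3, 395, 315 and 348 at P7, 368, 358 and 360 at P14, 456, 338 and 400 at P21, and 479, 477 and 504 in the adult. The P3 libraries lay above all others, and those of P7, P14 and P21 overlapped. Kcnn1 fell at P7, to 353 ± 40.3 against 558 ± 21 at P3 (log2 change -0.67 ± 0.11, adjusted p = 0.000988), and this call held under all 26 alternatives tried. The adult exceeded P21 by 0.3 ± 0.11 (adjusted p = 0.0407), a call that was lost in 14 of 27 alternatives, among them the length trend taken out (0.2, adjusted p = 0.134) and the libraries low in Eif2s3y left out (0.26, adjusted p = 0.219). The adult was under P3 by a log2 change of -0.2 (adjusted p = 0.133), which was called only with the length trend taken out (-0.25, adjusted p = 0.0436).

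Kcnn2 rose over the same period. Its counts were 313, 217 and 316 at P3, 321, 338 and 254 at P7, 784, 1026 and 832 at P14, 849, 1079 and 949 at P21, and 1105, 1690 and 1190 in the adult. Each library of the 3 later ages lay above each of P3 and P7, and those of P14 and P21 overlapped. Kcnn2 rose at P14, to 881 ± 129 against 304 ± 44.1 at P7 (2.89-fold, log2 change 1.53 ± 0.19, adjusted p = 2.22e-05). In the adult it averaged 1328 ± 316, against 282 ± 56.2 at P3 (4.68-fold, log2 change 2.23 ± 0.19, adjusted p = 2e-07). The adult exceeded P21 by 0.45 ± 0.19, which was not called (adjusted p = 0.0639) but passed in 3 of 27 alternatives. Under the alternatives, P14 against P7 stayed between 1.41 and 1.61 and the adult against P3 between 2.04 and 2.36. In the authors' deposited table, Kcnn2 was 2.89-fold higher at P14 than at P7 (step-up FDR 3.34e-13).

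Kcnn3 was mainly an early gene. Its counts were 392, 286 and 512 at P3, 186, 251 and 205 at P7, 31.0, 49.0 and 92.3 at P14, 33.7, 18.5 and 30.3 at P21, and 113, 72.2 and 69.3 in the adult. Each P3 library lay above each P7 library, each P7 library above all later ones, and P14 overlapped with both P21 and the adult. Kcnn3 fell at P14, to 57.4 ± 31.5 against 214 ± 33.3 at P7 (4.02-fold, log2 change -2.01 ± 0.37, adjusted p = 0.000527), and rose in the adult, to 85 ± 24.7 against 27.5 ± 7.97 at P21 (log2 change 1.6 ± 0.37, adjusted p = 0.00362). The adult remained 4.61-fold under P3 (log2 change -2.21 ± 0.37, adjusted p = 0.000116). The lower mean at P7 than at P3 was not called by limma (-0.86 ± 0.37, adjusted p = 0.0965), whereas the authors' deposited table gave a signed fold change of -1.85 at P7 over P3 with a step-up FDR of 0.0381. It was called by DESeq2 on the recovered reads (adjusted p = 0.0368), without the libraries low in Eif2s3y (adjusted p = 0.049) and with both ages alone in the fit (adjusted p = 0.0214). P21 against P14, at -0.94 (adjusted p = 0.127), was called only without P14 replicate 1 (-1.3, adjusted p = 0.0422). With the length trend taken out, the adult against P21 was 1.1 (adjusted p = 0.0125). The sums of 8 fibroblast markers were between 277297 and 353387 at P14 against 418802 to 534922 at P7, with 4 of the 8 called lower, and all 10 cell cycle markers were called lower at P14. In the adult against P21, where Kcnn3 rose, 6 of the 8 fibroblast markers were called lower and 1 higher, and 9 of the 10 cell cycle markers were called lower. Of 9 endothelial markers, 5 were called higher at P14 against P7, and 2 higher and 1 lower in the adult against P21. Of all genes, 24.3% were called higher and 23.8% lower at P14 against P7, and 25.4% and 24.1% in the adult against P21. As deviations from the age means, Kcnn3 correlated at 0.83 with the endothelial, 0.72 with the fibroblast and 0.02 with the cell cycle markers. It correlated at 0.66 with the balance of long and short transcripts. The endothelial correlation was not particular to Kcnn3: it was 0.88 for Kcnt2, 0.82 for Kcnt1, 0.79 for Kcnq3 and 0.72 for Kcnma1. For Kcnn1 and Kcnn2 it was 0.29 and -0.16. The part of these cells in the Kcnn3 level was not tested.

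The shares of the 3 genes in the SK total, per 1000 bases of exon, show the exchange within each library. Kcnn1 made up a median of 60.5% at P3, 58.6% at P7, 39.5% at P14, 40.2% at P21 and 39.7% in the adult. Kcnn2 made up 19.5% at P3, 29.3% at P7, 56.1% at P14, 58.5% at P21 and 57.7% in the adult, and Kcnn3 made up 18.6%, 15.1%, 2.13%, 1.34% and 2.4% at the same ages. Kcnn1 was the largest of the 3 in each P3 and P7 library and Kcnn2 in each library from P14 on. With the longest transcript as the length, Kcnn2 took a larger share, with a median of 29.6% at P3, 42.1% at P7 and 70.8% in the adult, and exceeded Kcnn1 in P7 replicate 5 as well.

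**Figure D3:**
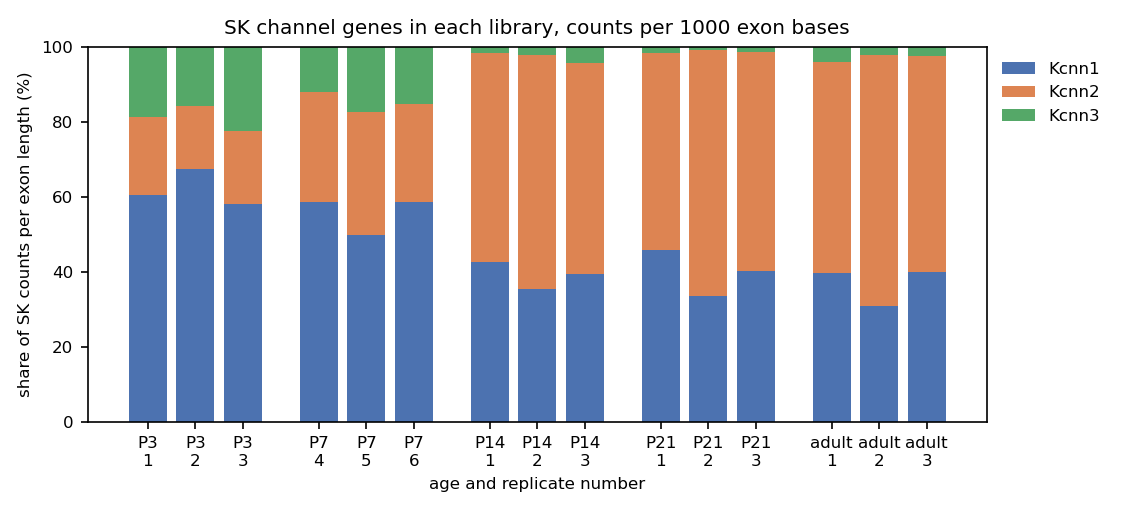
Share (y axis, percent) of Kcnn1, Kcnn2 and Kcnn3 in their summed counts per 1000 exon bases, in each of 15 libraries (x axis, age and replicate number). Kcnn2 holds 52.6% to 67.1% in the libraries from P14 on, against 16.8% to 32.8% in the P3 and P7 libraries.

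Over the ages, Kcnn2 ran in parallel with the markers of the neurons of the nerve. It correlated with them at r = 0.98 over the 15 libraries, but at 0.3 as deviations from the age means. The summed counts of 14 spiral ganglion neuron markers were between 426201 and 464604 at P14 against 110022 to 125536 at P7, and 12 of the 14 were called higher, with a median log2 fold change of 2.1. Relative to the mean log2 level of these markers, Kcnn2 stood between -3.54 and -4.25 in all 15 libraries, although its own level spanned 217 to 1690 normalized counts. Kcnn1 relative to the same markers was between -2.55 and -2.89 at P3, between -3.52 and -3.68 at P7 and between -5 and -5.46 from P14 on. These differences depend on gene length and compare libraries, not genes. The hair cell marker sums, between 6718 and 10104 at P14 and 6998 to 8914 at P7, overlapped between these ages. They were between 3971 and 9191 in the adult and 12086 to 14736 at P21. The Kcnn2 mean was 1328 in the adult and 959 at P21, a difference that was not called. The parts of neuron number and of hair cells in the Kcnn2 level were not tested.

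**Figure D4:**
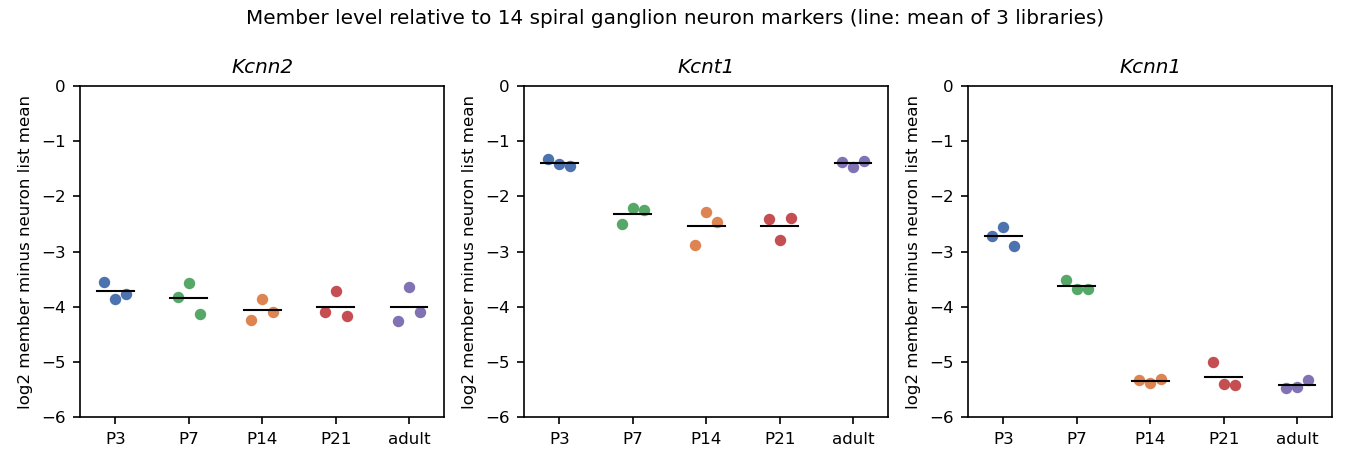
Log2 level of Kcnn2, Kcnt1 and Kcnn1 minus the mean log2 level of 14 spiral ganglion neuron markers (y axis) by age (x axis); points are libraries and the line the mean of 3. Kcnn2 stays between -3.54 and -4.25, Kcnt1 is higher at P3 and in the adult than between them, and Kcnn1 drops from P3 to P14.

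Calm3, which encodes the calcium sensor of SK channels, rose at the same step as Kcnn2. Of 9 genes of the SK complex, its calmodulins and its regulatory kinase and phosphatase, 4 were called higher at P14 against P7; in the adult against P21, 2 were higher and 3 lower, and in the adult against P3 4 were higher and 2 lower, with a median log2 fold change of 0.08. At P7 against P3 1 was called higher. Of all genes, 15.4% were called higher at P7 against P3 and 24.3% at P14 against P7. In the adult, 25.4% were higher and 24.1% lower against P21, and 34.4% higher and 34.3% lower against P3. At P21 against P14 limma, edgeR and DESeq2 called 0 of the 9, and 1 had an unadjusted limma p under 0.05. Limma called 9.29% of all genes there. Calm3 rose to 37826 ± 1989 at P14, against 18813 ± 563 at P7 (log2 change 1.01 ± 0.07, adjusted p = 1.77e-07). Ppp2r1a, the scaffold subunit of the phosphatase that raises the calcium sensitivity of SK channels, rose by 0.35 ± 0.06 over the same step (adjusted p = 0.000206).

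Of the sodium-activated channels, Kcnt1 had the highest adult level of all 7 genes, also per exon length. Its counts were 1464, 1171 and 1587 at P3, 805, 872 and 946 at P7, 2010, 3052 and 2587 at P14, 2741, 2071 and 3255 at P21, and 8123, 7630 and 7935 in the adult. The P7 libraries were the lowest, the P3 libraries lay between P7 and P14, P14 and P21 overlapped, and the adult libraries stood apart above all others. Kcnt1 fell at P7, to 874 ± 70.2 against 1407 ± 214 at P3 (log2 change -0.68 ± 0.17, adjusted p = 0.0106). It rose at P14, to 2550 ± 522 against the P7 level (2.88-fold, log2 change 1.52 ± 0.17, adjusted p = 9.18e-06), and again in the adult, to 7896 ± 249 against 2689 ± 594 at P21 (2.98-fold, log2 change 1.58 ± 0.17, adjusted p = 7.01e-05). The adult exceeded P3 by 2.5 ± 0.17 (5.65-fold, adjusted p = 2.33e-08). By adjusted p, Kcnt1 ranked 97 of the 16723 genes tested in the adult against P21.

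The 4 calls of Kcnt1 held in each alternative tried. With the length trend taken out, the adult exceeded P21 by 1.2 (adjusted p = 4.41e-05) and P3 by 2.31 (adjusted p = 1.33e-09). Relative to the neuron markers, Kcnt1 ran from -1.32 to -1.44 at P3, from -2.2 to -2.5 at P7, from -2.28 to -2.88 over P14 and P21, and from -1.36 to -1.46 in the adult, so its adult and P3 libraries stood above those of the ages between. Of the 14 neuron markers, 7 were called higher and 1 lower in the adult against P21, beside 25.4% and 24.1% of all genes, with a median log2 fold change of 0.41. As deviations from the age means, Kcnt1 correlated at 0.59 with the neuron markers and at 0.75 with the balance of long and short transcripts. It correlated at 0.82 with the endothelial and 0.79 with the smooth muscle and pericyte markers, and between -0.45 and 0.34 with the remaining lists. The part of these cells in the Kcnt1 level was not tested.

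Kcnt2 was low throughout and fell over the whole span. Its counts were 82.6, 76.9 and 107 at P3, 82.2, 94.9 and 93.9 at P7, 28.9, 69.4 and 75.1 at P14, 37.4, 10.3 and 25.4 at P21, and 47.9, 42.7 and 17 in the adult. The P3 and P7 libraries overlapped with each other and lay above all later ones, which overlapped among themselves. In the adult it averaged 35.8 ± 16.5, against 88.9 ± 16.2 at P3 (log2 change -1.4 ± 0.48, adjusted p = 0.0201), the only one of the 5 comparisons of ages in which limma called Kcnt2. That call was lost under quantile normalization (-0.87, adjusted p = 0.112), with the replicate block (-1.4, adjusted p = 0.0586) and without adult replicate 3 (-0.95, adjusted p = 0.104) or P3 replicate 3 (-1.26, adjusted p = 0.0647). P21 against P14, at -1.27 (adjusted p = 0.119), was called only without the libraries low in Eif2s3y, which leaves 1 library at P21 (-1.47, adjusted p = 0.0256). In the authors' deposited table, Kcnt2 had a signed fold change of -3.63 at P21 over P3 (step-up FDR 0.000197). Per 1000 exon bases, the ratio of Kcnt1 to Kcnt2 was from 10.7 to 12.9 at P3, 6.67 to 7.31 at P7, 25 to 50.4 at P14, 53.2 to 146 at P21 and 123 to 339 in the adult. The P21 and adult libraries overlapped, and the highest ratio rests on 14 reads of Kcnt2 in adult replicate 3.

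Both listed partners of sodium-activated channels were tested. Ano3, a transmembrane protein that increases Slack activity in rat sensory neurons, averaged 334 ± 24.2 at P3, 375 ± 31 at P7, 733 ± 60.4 at P14, 630 ± 104 at P21 and 990 ± 332 in the adult. It rose at P14 against P7 by 0.97 ± 0.19 (adjusted p = 0.000952) and in the adult against P21 by 0.61 ± 0.19 (adjusted p = 0.0176). Fmr1, whose protein binds the Slack channel, averaged 3366 ± 261 in the adult, against 3846 ± 60.5 at P3 (-0.2 ± 0.06, adjusted p = 0.0137), and exceeded P21 in the adult by 0.17 ± 0.06 (adjusted p = 0.0425).

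Kcnq3 stood out in the adult. Its counts were 219, 185 and 351 at P3, 152, 191 and 98.6 at P7, 77.5, 170 and 228 at P14, 146, 43.2 and 270 at P21, and 703, 660 and 599 in the adult. The libraries of the 4 postnatal ages overlapped with one another, and each adult library lay above all of them. Kcnq3 averaged 654 ± 52.4 in the adult, against 153 ± 114 at P21 (5.41-fold, log2 change 2.44 ± 0.55, adjusted p = 0.0033), and exceeded P3, at 252 ± 87.8, by 1.42 ± 0.55 (adjusted p = 0.0332). The authors' deposited table gave no step-up FDR under 0.05 for Kcnq3 among the 4 postnatal ages.

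Kcnq3 followed the balance of long and short transcripts closely, with 599 to 703 normalized counts in the adult libraries, against 43.2 in P21 replicate 2, whose balance was -0.73. Over all genes, those with a longest transcript of at least 4707 bases had a median log2 fold change of 0.38 in the adult against P21, and those at or under 2123 bases -0.34. With the length trend taken out, Kcnq3 in the adult exceeded P21 by 1.74 (adjusted p = 0.00556) and P3 by 0.99 (adjusted p = 0.0486). Without P21 replicate 2 the adult exceeded P21 by 1.71 (adjusted p = 0.00814), and without the 4 libraries low in Eif2s3y by 1.33 (adjusted p = 0.0515). The call in the adult against P3 was lost when any of P3 replicates 1 and 2 and the 3 adult libraries was left out (adjusted p between 0.0582 and 0.104).

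**Figure D5:**
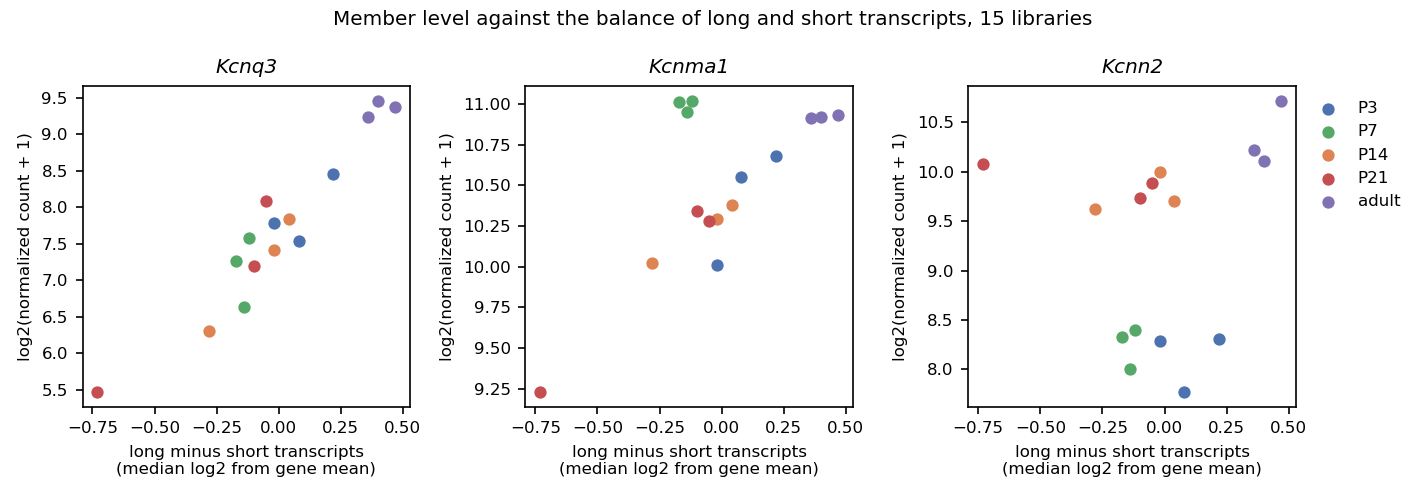
Log2(normalized count + 1) of Kcnq3, Kcnma1 and Kcnn2 (y axes, not starting at 0) against the balance of long and short transcripts (x axis, median log2 deviation) in 15 libraries colored by age. Kcnq3 is highest in the adult libraries at 0.36 to 0.47 and lowest in the library at -0.73, whereas Kcnn2 in the library at -0.73 is the highest of the P14 and P21 libraries.

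Of the partners of KCNQ channels, 11 were tested. At P7 against P3 1 was called lower and at P14 against P7 1 higher and 3 lower. In the adult against P21 4 were higher and 3 lower, and in the adult against P3 2 higher and 6 lower. In the same comparisons and order, 28.1%, 48.1%, 49.4% and 68.7% of all genes were called. At P21 against P14 limma and edgeR called 0 and DESeq2 2, and 3 had an unadjusted limma p under 0.05. Limma called 9.29% of all genes there. Their median log2 fold change was 0.28 in the adult against P21 and -0.23 in the adult against P3. Ank3, which encodes the ankyrin that anchors KCNQ and sodium channels at nodes and initial segments, averaged 7376 ± 593 in the adult, against 3664 ± 881 at P21 (1.04 ± 0.15, adjusted p = 0.000302). Its earlier means lay between 3063 and 3704. The change of Ank3 with the length trend taken out is not given here. Kcne4, a small subunit that damps some KCNQ channels, averaged 230 ± 60.1 in the adult, against 895 ± 69.6 at P3 (-1.99 ± 0.26, adjusted p = 1.4e-05).

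The order of the levels per 1000 exon bases changed with age. At P3, Kcnt1 (148 ± 22.5) and Kcnn1 (122 ± 4.58) led. Their ranges overlapped, although Kcnt1 was the higher in each library. With the longest transcript as the length, Kcnt1 (176 to 239) and Kcnn1 (133 to 143) did not overlap at P3. Next per exon length came Kcnma1 (81.7 ± 18.6), Kcnn3 (37.9 ± 10.8), Kcnn2 (37.8 ± 7.52), Kcnq3 (17.1 ± 5.97) and Kcnt2 (12.9 ± 2.35). At P7, Kcnma1 (120 ± 3.18) came before Kcnt1 (92.1 ± 7.39) and Kcnn1 (76.9 ± 8.78). At P14, Kcnt1 (268 ± 55) and Kcnn2 (118 ± 17.2) led, ahead of Kcnn1 (78.9 ± 1.17) and Kcnma1 (70.9 ± 8.92), which overlapped, and the order at P21 was the same. In the adult, Kcnt1 (831 ± 26.2) was the highest in each library, followed by Kcnn2 (178 ± 42.3), Kcnma1 (114 ± 0.774), Kcnn1 (106 ± 3.35), Kcnq3 (44.5 ± 3.56), Kcnn3 (8.13 ± 2.36) and Kcnt2 (5.2 ± 2.4). The libraries of Kcnn3 and Kcnn2 overlapped at P3, and Kcnn3 and Kcnt2 did not differ by more than their SDs in the adult. With the longest transcript as the length, Kcnn2 came before Kcnn3 at P3 and Kcnma1 before Kcnn1 at P14, and the order at the other ages was the same.

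The genes most like each channel were sought among 13182 others by Pearson's r of the log2 values over the 15 libraries, which share ages, cell makeup and transcript balance. Kcnn2 was most like Slc17a7, which loads glutamate into the synaptic vesicles of these neurons (r = 0.985), Klhl21 (0.984) and Pitpna (0.983). Slc17a7 is itself among the 14 spiral ganglion neuron markers. It averaged 3115 at P3, 3624 at P7, 17135 at P14, 17052 at P21 and 26686 in the adult. Kcnt1 was most like Iqsec1 (r = 0.993), Map3k9 (0.992) and Myo5a (0.99). For Kcnn3 they were Adgrb2 (r = 0.985), Ephb2 (0.979) and Ankfy1 (0.978), and for Kcnq3 Macf1 (0.974), Adgrl3 (0.974) and Ift140 (0.973). Kcnma1 was most like Dnajb12 (r = 0.957), Zmiz1 (0.942) and Mkl2 (0.931), Kcnn1 like Cep85 (0.946), Cdh4 (0.922) and Gbp5 (0.917), and Kcnt2 like Sidt2 (0.946), Rbak (0.926) and Npat (0.919).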

How the data were processed

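The authors' deposited table gave normalized read counts per gene, used as a signal: within 0.1 of a whole number, 99.94% of the values above 0 were multiples of a single step for each library, so reads could be recovered, between 35250155 and 42258738 per library. Per the submitters' processing notes, the authors used Partek, TopHat2 and DESeq2 on build mm10; versions, annotation, counting and filters are not given in the sources used here. Per the file headers, the deposited table also holds, for each pair of postnatal ages, the authors' p-value, their step-up FDR and, as a score, their signed fold change.

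The 16723 genes that reached 10 in 3 or more libraries, all 7 channels among them, were tested with limma (3.58.1, R 4.3.3; trend, robust empirical Bayes) on log2(value + 1), 15 libraries in 1 fit without covariates, two-sided, Benjamini-Hochberg over all genes tested. Exon lengths are from GENCODE M21. Alternatives were quantile normalization, TMM scaling, testing unfiltered genes or those reaching 50, a pseudocount of 0.1 or 10, edgeR (4.0.16) and DESeq2 (1.42.0) on the recovered reads, the replicate block, both ages alone in the fit, leaving out the 4 libraries low in Eif2s3y or each library, and, chosen after seeing the data, removal of a lowess trend over transcript length. The code was tested on simulated data.

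The channels, partner lists, marker lists and tests were chosen with earlier results of these data known. Up to 3 partners per list were named by their joint adjusted p, and up to 3 most alike genes with a mean of at least 100. A few partners and markers that this rule would name are left out of the text.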

Additional observations from a re-analysis of the deposited data

How the results depend on the processing

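Of the fold changes of the 7 channels recomputed under alternatives, 874 kept their direction and side of the threshold, 27 lost a call, 16 gained one and 14 turned sign or came to 0. Without the 4 libraries low in Eif2s3y, which leaves P21 with 1 library assumed to vary like the other ages, 4 of the 7 channels were called at P7 against P3, 1 at P21 against P14 and 2 in the adult against P21, and 754 and 3987 genes were called at P21 against P14 and in the adult against P21. With both ages alone in the fit, 4 channels were called at P7 against P3, and 137 genes at P21 against P14 and 5211 in the adult against P21. DESeq2 called 2519 genes at P21 against P14, where limma called 1553. With the length trend removed, 3 channels were called in the adult against P21, and the count over all genes is not given here. The cause was not tested.

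Leaving out 1 library gave between 3080 and 6349 genes called at P7 against P3, against 4703 with all libraries. It was 3080 without P7 replicate 5 and 3124 without P3 replicate 3. At P21 against P14 between 631 and 1969 genes were called (631 without P14 replicate 3, 979 without P14 replicate 2). There, 0 or 1 channels were called (1 without P14 replicate 1). In the adult against P3 between 3 and 6 channels were called (3 without adult replicate 3). The 6349 and 1969 genes and the 6 channels came without P21 replicate 2. All 15 libraries enter 1 fit, so this library also bears on comparisons that do not include P21.

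Signs turned only for changes that were not called either way. Leaving out 1 library, Kcnn2 ranged from -0.06 to 0.24 and Kcnt2 from -0.06 to 0.18 at P7 against P3, Kcnn1 from -0.04 to 0.13 and Kcnq3 from -0.3 to 0.47 at P14 against P7, and Kcnma1 from -0.47 to 0.08, Kcnq3 from -0.85 to 0.46 and Kcnt1 from -0.09 to 0.25 at P21 against P14. Kcnq3 at P21 against P14 was 0.45 once the libraries low in Eif2s3y were removed.

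The replicate numbers did not pair the libraries: deviations of same-numbered libraries correlated between -0.13 and 0.17, and P7 bears other numbers. With the replicate block, without P7, 645 genes were called at P21 against P14; 4 channels were called in the adult against P21 and 4 in the adult against P3.

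With 3 libraries per age, small changes of the less abundant channels, Kcnt2 and Kcnn3 after P7, rest on few reads, down to 10 and 18 in a library.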
